A study of Drosophila melanogaster with 2 samples.

Results

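Of the 4419 peaks in the main list of an anti-GFP ChIP-seq experiment on Drosophila embryos, 891 lay on the assembled X chromosome, and they are described here by position, annotation, nearest gene, sequence and strength. Members were the peaks whose chromosome is given as X, so neither signal nor annotation was used to choose them. They were compared with the peaks of the autosomal arms 2L, 3L and 3R, which held 823, 963 and 979 peaks (2765 in all). The embryos were whole organisms of the strain esg-GFP, collected from 0 to 24 h of development, in which an insertion tags escargot (esg) with eGFP. Chromatin bound by the tagged protein was precipitated with an antibody against GFP, sonicated fragments spanned 200 to 800 bp, and 2 biological replicates of this 1 group were made, with no other genotype or treatment. All cell types of the embryo were pooled, sex was not recorded, and the DNA content of X relative to the autosomes was not measured here. Read depth is unknown, so intervals below cover counting error only.

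The protein Escargot belongs to the Snail family of zinc finger factors, which act mostly as repressors and bind E-box sequences with the core CAGGTG. In the fly embryo it is known from imaginal precursors, the tracheal system and the nervous system. Male flies carry a lone X and female flies a pair of them. In males the MSL complex, guided by the roX RNAs, raises transcription of X-linked genes, and the X-linked gene Sex-lethal (Sxl) is the switch that blocks this in females.

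X peaks are shown first by the sequence beneath them, because short words recurred at a set distance from the summit. The summit is the base of highest signal in a deposited peak. At 70 of the 891 X peaks the word ACAGTG stood within 150 bp on the side of lower coordinates and its reverse complement CACTGT within 150 bp on the other, so that both pointed their 3′ ends to the summit. Such a set is called a facing pair here. Some of the strongest X peaks with a facing pair, in windows free of UTR sequence, are printed on the plus strand of dm6, from the RefSeq assembly of that genome release, 130 bp either side of the summit and with both words in capitals:
NFAT, chrX:13640389-13640649: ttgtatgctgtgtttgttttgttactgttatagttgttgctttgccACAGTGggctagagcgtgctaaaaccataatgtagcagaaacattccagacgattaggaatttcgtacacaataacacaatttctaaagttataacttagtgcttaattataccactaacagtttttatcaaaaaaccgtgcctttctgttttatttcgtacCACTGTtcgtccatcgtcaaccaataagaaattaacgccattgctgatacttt
org-1, chrX:8455306-8455566: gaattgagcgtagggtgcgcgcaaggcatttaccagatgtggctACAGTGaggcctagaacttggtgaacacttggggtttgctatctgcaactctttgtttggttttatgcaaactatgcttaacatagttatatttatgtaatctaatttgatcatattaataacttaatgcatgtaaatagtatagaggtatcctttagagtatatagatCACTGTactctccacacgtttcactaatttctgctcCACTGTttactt
prage, chrX:1830640-1830900: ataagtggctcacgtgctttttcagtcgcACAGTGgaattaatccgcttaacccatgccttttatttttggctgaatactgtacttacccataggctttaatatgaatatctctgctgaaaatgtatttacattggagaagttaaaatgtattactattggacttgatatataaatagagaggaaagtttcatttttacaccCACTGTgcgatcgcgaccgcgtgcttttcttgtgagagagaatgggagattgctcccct
Hr4, chrX:1963808-1964068: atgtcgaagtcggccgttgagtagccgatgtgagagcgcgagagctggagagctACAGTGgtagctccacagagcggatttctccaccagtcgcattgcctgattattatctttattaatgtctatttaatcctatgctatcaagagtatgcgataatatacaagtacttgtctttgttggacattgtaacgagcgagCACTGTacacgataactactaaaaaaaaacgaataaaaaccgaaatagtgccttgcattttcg
CG32767, chrX:5083647-5083907: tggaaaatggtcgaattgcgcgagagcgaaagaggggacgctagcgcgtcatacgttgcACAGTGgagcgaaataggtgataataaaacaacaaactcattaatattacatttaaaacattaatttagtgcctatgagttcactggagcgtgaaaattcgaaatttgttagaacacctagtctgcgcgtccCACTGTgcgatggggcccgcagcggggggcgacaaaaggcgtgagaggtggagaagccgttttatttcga
Between the inner words the GC content was lower than outside the pair at all 5, from 30.1% against 44.4% at org-1 to 38.4% against 43.7% at Hr4. Over all 70 pairs it was 33.9% ± 6.47 (SD) between the words and 48.9% ± 7.19 in the rest of the 150 bp on either side, and lower between them at 67. A low GC content at the centre was not particular to these peaks, with a mean of 35.1% in the 201 bp around all 891 X summits. Peaks without a pair were not measured in the same way. NFAT, org-1 and Hr4 encode transcription factors. The centres of the strongest X peaks are printed next, 50 bp either side of the summit, with TTAAAA or its reverse complement in capitals where present. The peak that ranked first, at Ugalt, is left out of this set because its window reaches into a UTR:
ph-p, chrX:2137294-2137394: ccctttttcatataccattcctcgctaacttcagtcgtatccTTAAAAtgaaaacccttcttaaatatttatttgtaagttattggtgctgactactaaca
CG32772, chrX:4910318-4910418: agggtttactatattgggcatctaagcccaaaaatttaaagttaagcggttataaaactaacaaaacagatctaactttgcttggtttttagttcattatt
CG4004, chrX:12751359-12751459: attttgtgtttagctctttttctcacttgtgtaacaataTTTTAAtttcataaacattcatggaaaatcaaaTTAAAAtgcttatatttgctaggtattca
Tlk, chrX:3742175-3742275: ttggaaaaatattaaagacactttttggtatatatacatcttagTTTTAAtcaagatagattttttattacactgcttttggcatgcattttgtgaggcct
norpA, chrX:4324937-4325037: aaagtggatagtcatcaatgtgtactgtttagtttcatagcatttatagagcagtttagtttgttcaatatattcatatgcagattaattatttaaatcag
In 3 of these 5 windows the word was present. By contrast, the E-box core of Snail family proteins was rare at X summits, and the strongest X peaks that held it within 50 bp are printed with CAGGTG or CACCTG in capitals:
Hr4, chrX:1947723-1947823: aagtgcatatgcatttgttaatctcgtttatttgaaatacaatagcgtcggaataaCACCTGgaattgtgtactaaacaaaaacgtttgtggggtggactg
Act5C, chrX:5900148-5900248: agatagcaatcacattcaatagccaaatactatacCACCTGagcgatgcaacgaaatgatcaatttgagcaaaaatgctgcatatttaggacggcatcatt
CG7065, chrX:9141412-9141512: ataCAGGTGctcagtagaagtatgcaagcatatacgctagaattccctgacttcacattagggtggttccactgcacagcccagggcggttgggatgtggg
These peaks stood at ranks 74, 145 and 247 of the 891 on X, with signals of 336, 242 and 175. Hr4 encodes a nuclear receptor and Act5C a cytoplasmic actin.

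Words were counted on both strands in the 201 bp centred on each summit and compared with windows of the same length 1000 bp towards lower coordinates. Searched were 7 words: the E-box core CAGGTG of Snail proteins, the word ACAGTG shown above, the AT-rich word TTAAAA, the GAGA-type word GAGAG, the repeat CACACA, the DRE word TATCGATA and the promoter word GGTCACAC. None of them holds another, although matches may overlap by some bases. Peaks are not replicates of a condition, so p-values over peaks describe these libraries and not a wider population. The words were chosen with earlier results of these data known, and the adjustment over 7 words does not cover that choice. ACAGTG stood at 24.0% of X summits against 9.43% of the flanking windows (exact McNemar test, Benjamini-Hochberg adjusted exact p = 1.51e-15 over the 7 words). TTAAAA stood at 46.8% of summits against 28.3% of flanks (adjusted exact p = 6.03e-15). CAGGTG was rarer at summits than beside them, at 4.60% against 7.52% (adjusted exact p = 0.0281), and CACACA likewise at 15.6% against 19.9% (adjusted exact p = 0.0369). Of all 116786 windows of this length tiled along X, 7.72% held ACAGTG, 27.4% held TTAAAA and 8.11% held CAGGTG. The word GAGAG, bound by GAGA factor, stood at 20.5% of summits and 24.1% of flanks (adjusted exact p = 0.0866). TATCGATA, the DRE element, stood at 14 summits and 8 flanks, and GGTCACAC at 7 and 3, and neither passed the test. Mean GC content was 35.1% ± 6.69 (SD over 891 windows) at X summits and 41.6% ± 9.14 in the flanks, and its part in these differences was not tested.

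Compared with the autosomal arms, X summits held ACAGTG more often and TTAAAA less often. Over all windows of this length tiled along the chromosomes, ACAGTG stood in 7.72% on X and 7.42% on the arms. TTAAAA stood in 27.4% and 29.7%, so part of its difference was present beyond the peaks. ACAGTG was found at 24.0% (95% exact binomial interval 21.2 to 27.0) of X summits and at 18.8% (17.3 to 20.3) of the summits on the 3 arms (Fisher's exact test, two-sided, adjusted exact p = 0.00311). The share was 21.1% on 2L, 16.3% on 3L and 19.2% on 3R, and against 2L alone the difference of 2.88 points did not pass (adjusted exact p = 0.451). With windows of 50 bp either side of the summit the difference from the 3 arms was 0.803 points and did not pass (adjusted exact p = 0.661). TTAAAA was found at 46.8% (43.5 to 50.1) of X summits and at 55.8% (54.0 to 57.7) on the arms (adjusted exact p = 2.02e-05). Here each arm was above X, with 57.7% on 2L, 57.2% on 3L and 52.9% on 3R. Mean GC content at the summits was 33.8% on 2L, 33.1% on 3L and 34.2% on 3R, each below the 35.1% of X. CAGGTG did not pass, at 4.60% (3.32 to 6.19) on X and 5.39% (4.58 to 6.30) on the arms (adjusted exact p = 0.541). None of the other 4 words passed, and the nearest to doing so was CACACA at 15.6% against 12.5% (adjusted exact p = 0.0539). In the tiled windows CACACA was likewise more frequent on X, at 17.1% against 15.1% on the arms. CACACA passed with replicate 2 alone (3.91 points, adjusted exact p = 0.0331) and against 3R alone (4.06 points, adjusted exact p = 0.0306), and differed by 0.112 points with replicate 1 alone (adjusted exact p = 0.947).

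ACAGTG mostly pointed towards the summit, on whichever side of it the word stood. Within 150 bp of the 891 X summits there were 431 matches at 308 peaks, and 343 of them (79.6%, 75.5 to 83.3) pointed their 3′ end to the summit. In windows of the same size 1000 bp away, 75 of 137 matches (54.7%, 46.0 to 63.3) did so. Of the CAGGTG matches at X summits, 39 of 75 faced inward (52.0%, 40.2 to 63.7). Matches on the plus strand were most frequent 75 to 100 bp below the summit, with 45 in that 25 bp bin, and those on the minus strand 75 to 100 bp above it, with 54. TTAAAA instead lay close to the summit, with its nearest match within 50 bp at 294 X peaks and 50 to 100 bp away at 127.

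**Figure D1:**
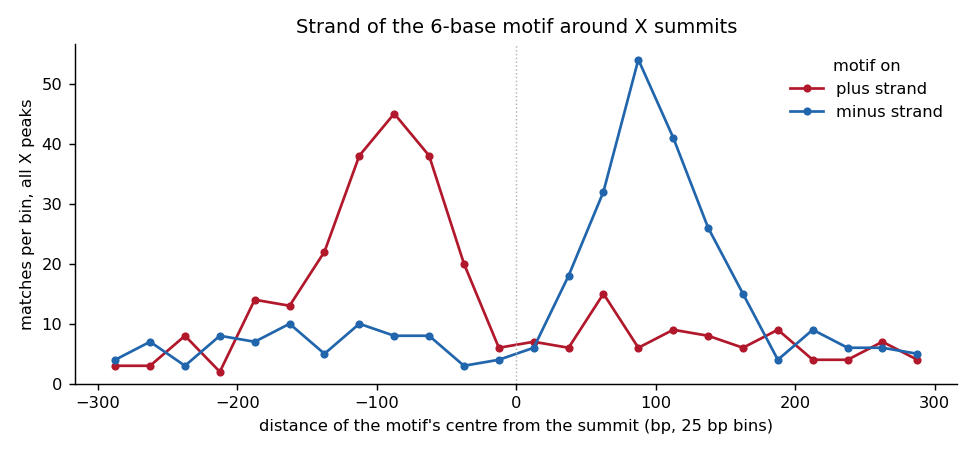
Number of ACAGTG matches in 25 bp bins around all X summits, by the strand that carries the word; the x axis is the distance of the word's centre from the summit in bp. Plus-strand matches peak at 45 per bin below the summit and minus-strand matches at 54 per bin above it, and both are at 7 or fewer in the bins that touch the summit.

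The inward arrangement was found on the arms as well and was somewhat more frequent on X. Inward matches made up 74.7% on 2L, 73.3% on 3L, 72.2% on 3R and 73.3% (70.4 to 76.1) over the 3 arms, against 79.6% on X (Fisher's exact test, adjusted exact p = 0.0127 over 3 comparisons added after the data were seen). This test also counted matches and not peaks, so its p-value may be too small. With the peaks of replicate 1 alone the difference was 5.23 points and did not pass (adjusted exact p = 0.0775), nor did it with the other list of the series (5.19 points, adjusted exact p = 0.0539) or against 2L or 3L alone. Facing pairs stood at 7.86% (6.18 to 9.82) of X peaks and 4.88% (4.11 to 5.75) of peaks on the arms (adjusted exact p = 0.00208), and against 2L alone, with 5.83%, that difference did not pass (adjusted exact p = 0.130). In the flanking windows of X, 4 of 891 had such a pair. The distance between the centres of the paired words was 163 bp at the median on X, with the middle 50% of pairs from 145 to 187 bp, and 168 bp on the arms. The base after ACAGTG was G in 51.3% of the 431 X matches, and the base before it was C in 42.0% and T in 33.9%.

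Facing pairs were found more often under strong peaks than under weak ones. When the 891 X peaks were divided into 5 parts by signal, 28 of the 179 strongest had a pair (15.6%), against 16, 15, 3 and 8 in the following parts of 178 peaks each. The 70 peaks with a pair had a median signal of 175, against 108 for the other 821, and 81.4% against 57.1% overlapped a peak in both replicates' own lists. They lay in introns at 75.7% and at promoters at 28.6%, against 63.3% and 38.5% of the other X peaks. These shares are descriptions of the same peaks and were not tested.

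Signal is a value the authors gave each peak, with no stated unit. It was used to rank and describe peaks, and values of the main list and of the replicates' lists stand side by side only as the authors gave them. X held the strongest peak of the whole list, at Ugalt, which encodes a UDP-galactose transporter. This peak spanned chrX:2703713-2704043 with its summit 38 bp upstream of a start site, and its signal was 2451.6 in the main list, 1260.1 in the list of replicate 1 and 1197.0 in that of replicate 2. The next X peak lay in an intron at ph-p, which encodes a Polycomb group protein (chrX:2137194-2137504). It had 1581.1 in the main list, 830 in replicate 1 and 773 in replicate 2. At these and the other strongest X peaks the replicates gave similar values, and over the 14 strongest reported here the main list's value was 0.986 to 1.01 times the sum of the replicates' values. A further ph-p peak 485 bp inside the gene (signal 779) and weaker ones brought that gene to 4 summits. An intron of CG32772 held the peak at rank 3 on X, with 1332.6 in the main list, 657 in replicate 1 and 669 in replicate 2. The peaks at ranks 4 and 12 (1032.5 and 771) lay in exons of the long noncoding RNAs lncRNA:Vinr and lncRNA:CR44619. Their nearest start site of any kind was that of lncRNA:CR44619, 458 bp downstream of the rank 4 summit and 491 bp upstream of the rank 12 summit, while both lay more than 5 kb from the nearest protein-coding start site, that of CG4004. Both are strong X peaks in noncoding transcripts and far from the protein-coding gene that distance assigns them to.

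Others among the 14 strongest lay at genes of varied roles. Tlk, the Tousled-like kinase of chromatin assembly, had an intronic peak of 969 (482 in replicate 1, 489 in replicate 2), and norpA, the phospholipase C of phototransduction, one of 889 (453 and 441). Atf3, a bZIP transcription factor, had a peak of 865 (409 and 456) 214 bp upstream of a start site. MFS10 had a peak of 854 (472 and 388) and Gapdh2, a glycolytic enzyme, one of 762 (428 and 340). These were the peaks of the 14 whose replicates lay furthest apart as a ratio. CG3726, TRAM and NFAT had peaks of 825, 801 and 730. All 14 were found in both replicates' own lists, and 9 of them lay within 500 bp of an annotated start site when those of noncoding genes are included.

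**Figure D2:**
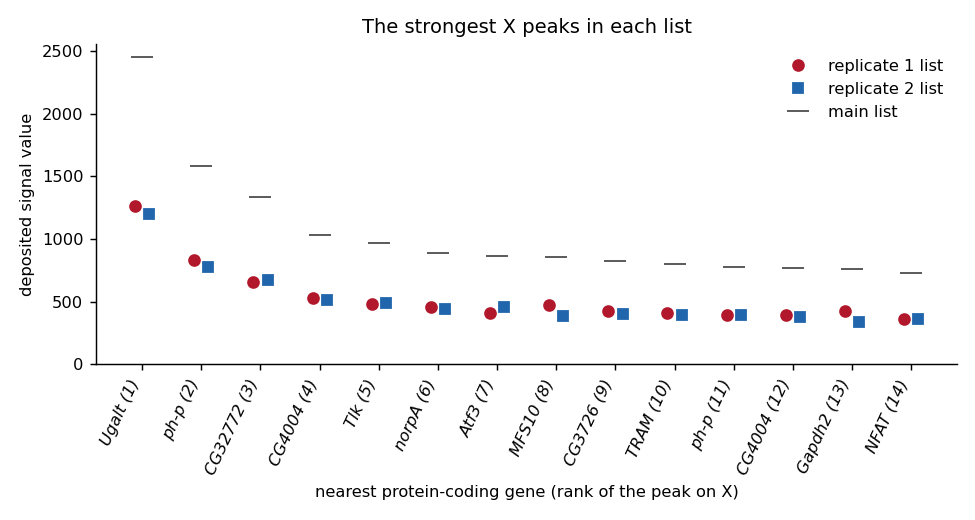
Deposited signal value (no stated unit) of the 14 strongest X peaks in the main list (bars) and of the strongest overlapping peak in the lists of replicate 1 (circles) and replicate 2 (squares), labelled by nearest protein-coding gene and rank on X. At each peak the replicates lie close together and their sum is close to the main list's value, with replicate values from 1260.1 and 1197.0 at Ugalt to 364 in each at NFAT.

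X peaks as a whole did not differ detectably in signal from those of the arms. Their median signal was 111, against 108 on 2L, 109 on 3L and 104 on 3R, and the lowest and highest on X were 2.27 and 2451.6. Above the median of the 3 arms lay 52.0% (48.6 to 55.3) of X peaks, against 49.98% of the arms' own (Fisher's exact test, adjusted exact p = 0.341). Above the value that cuts off the strongest part in 5 of the arms lay 20.2% (17.6 to 23.0) of X peaks (adjusted exact p = 0.885). X gave 2 of the 10 strongest peaks of the list, 14 of the strongest 100 and 99 of the strongest 500. Away from promoters X peaks were the stronger ones, with a median of 108 over 555 peaks against 97.1 over 1592, and 50.1% of them, against 43.7% on the arms, lay above the median signal of all peaks on the arms, a difference of 6.43 points (adjusted exact p = 0.0233). At promoters the order was turned, with medians of 120 over 336 X peaks and 125 over 1173, but the difference of −3.51 points in the share above the same median did not pass (adjusted exact p = 0.298), and the contrast between the classes was not tested.

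The strongest X peaks were the ones found in both replicates. Of the 891, 526 (59.0%, 55.7 to 62.3) overlapped a peak in each replicate's own list, 84 overlapped one of replicate 1 alone, 115 one of replicate 2 alone and 166 neither. On the arms 56.5% (54.7 to 58.4) were in both (adjusted exact p = 0.279). By part of signal the share in both fell from 100% and 98.3% over 75.3% to 13.5% and 7.87%, so the weaker X peaks rest mostly on the combined list. Across the 526 shared X peaks the signals of the replicates had a Spearman's rho of 0.862, computed over peaks of the same libraries. There were 25 X peaks of signal under 20, and all of them overlapped a stronger X peak.

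X had more peaks per base than the 3 arms together, but fewer before the reproducibility threshold was applied. It carried 38.0 peaks per Mb of known sequence, against 35.0 on 2L, 34.4 on 3L and 30.5 on 3R, a ratio of 1.15 to the pooled arms (95% interval 1.06 to 1.24; exact binomial test, adjusted exact p = 0.00152 over 14 comparisons). Against 2L alone the ratio was 1.08 (adjusted exact p = 0.169) and against 3L alone 1.10 (adjusted exact p = 0.100), and of the single arms only 3R gave a passing ratio, 1.24 (adjusted exact p = 1.10e-05). In the ranked list, which holds peaks before the selection by irreproducible discovery rate (IDR), X had 8991 peaks or 383 per Mb against 473 on the arms, a ratio of 0.810 (0.792 to 0.829; adjusted exact p = 6.66e-75, a comparison added after the data were seen). Accordingly 9.91% (9.30 to 10.5) of ranked X peaks were in the main list, against 7.002% (6.75 to 7.26) of those on the arms (Fisher's exact test, adjusted exact p = 1.07e-18), and the share on each arm, 7.32% on 2L, 7.62% on 3L and 6.27% on 3R, was below that of X.

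**Figure D3:**
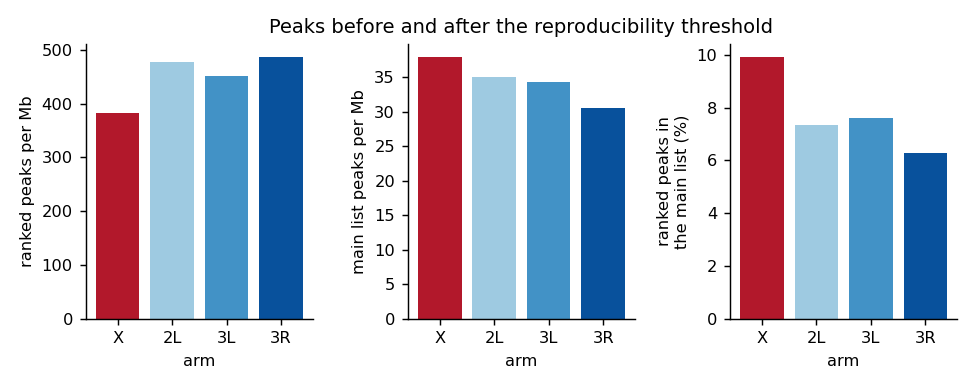
Ranked peaks per Mb of known sequence, main list peaks per Mb and the percentage of ranked peaks in the main list, for X and the arms 2L, 3L and 3R (bars, 1 combined list each, no replicates). X is lowest before the threshold at 383 per Mb and highest after it at 38.0 per Mb.

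Peaks were spread unevenly along X, and the end next to the centromere was nearly empty. In bins of 1 Mb from the distal end the count ranged from 1 to 66, with a median of 38 over the 23 whole bins. The bin from 6 to 7 Mb had the most, 66, with 111 gene starts, and that from 3 to 4 Mb had 64 with 55 gene starts, the bin that holds Tlk, kirre, dnc, Myc and Mnt in whole or in part. The first pair of bins, at the distal tip, held 19 and 25. From 20 to 22 Mb the bins held 17 and 18, and the last pair held 1 peak each, nearest to CG17600 and stnA, where 44 and 15 protein-coding genes start and 165 and 65 ranked peaks lay. The longest stretch between neighbouring summits, 877661 bp, ran from DIP1 (chrX:21631682, signal 124) to CG17600 (chrX:22509343, signal 71.1) and spanned 31 protein-coding gene starts. Across the 23 whole bins the count of summits and that of gene starts had a Spearman's rho of 0.388, a description over neighbouring bins of 1 chromosome.

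**Figure D4:**
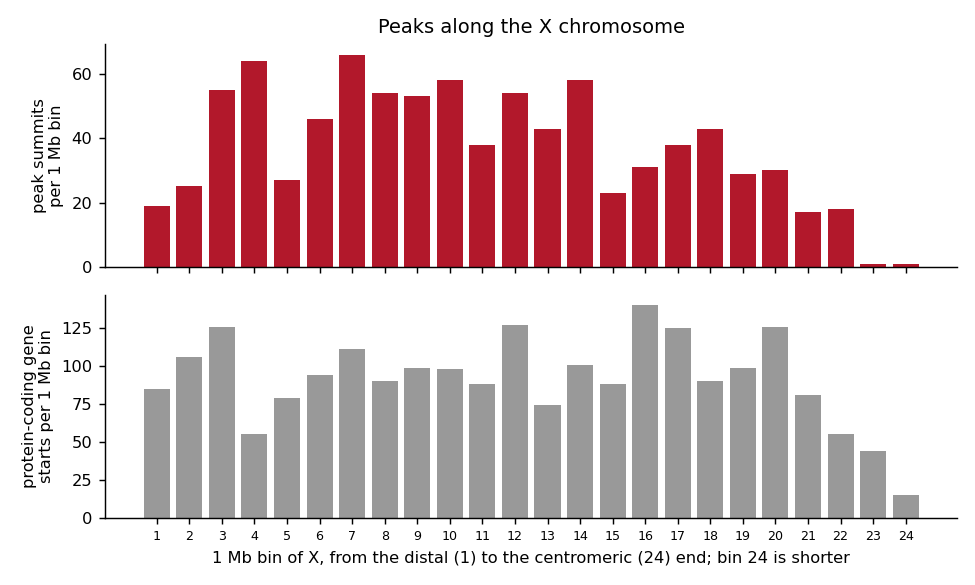
Peak summits (top) and protein-coding gene starts (bottom) per 1 Mb bin of X, numbered from the distal end; bin 24 is shorter than the rest. Bins 7 and 4 hold the most summits, 66 and 64, and bins 23 and 24 hold 1 each while 44 and 15 genes start there.

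Introns were where X peaks lay most often, more so than on any of the arms. The summit base was intronic at 573 of 891 X peaks (64.3%, 61.1 to 67.5), against 45.3% on 2L, 46.6% on 3L and 51.4% on 3R (Fisher's exact test against the pooled arms, 47.9%, adjusted exact p = 5.66e-17). Intergenic summits were the counterpart, with 232 on X (26.04%, 23.2 to 29.1) against 43.9%, 44.0% and 39.7% (adjusted exact p = 3.58e-18). X is itself richer in intron, which makes up 46.8% of its known bases against 39.6% on 2L, 40.1% on 3L and 46.2% on 3R. Per Mb of intron X still had more summits, 52.1 against 40.0 on 2L, 40.0 on 3L and 34.0 on 3R, a ratio of 1.39 to the pooled arms (1.26 to 1.53; adjusted exact p = 1.85e-10, added after the data were seen). Per Mb of intergenic sequence it had 39.2 against 44.9, a ratio of 0.874 (0.755 to 1.01; adjusted exact p = 0.0633). That ratio passed with the other list of the series (0.839, adjusted exact p = 0.0271), with replicate 1 alone (0.833, adjusted exact p = 0.0385), with replicate 2 alone (0.835, adjusted exact p = 0.0344), among peaks above the median signal of the whole list (0.792, adjusted exact p = 0.0260) and against 2L alone (0.824, adjusted exact p = 0.0228). Intronic summits on X lay in long genes: the median length of the gene around them was 29402 bp, against 22386 bp on 2L, 26996 bp on 3L and 25497 bp on 3R. Genes over 20 kb make up 9.02% of X genes and 6.93% to 7.19% of those on the arms.

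**Figure D5:**
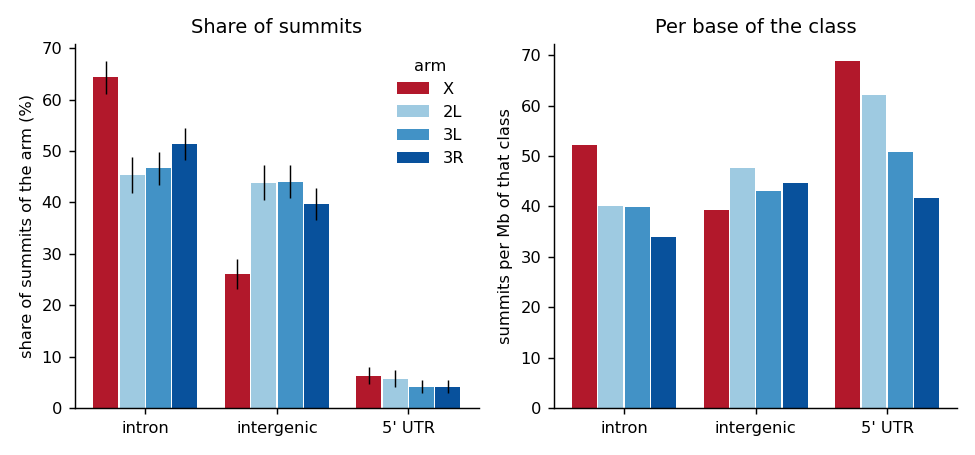
Left, share of the summits of each arm in introns, intergenic sequence and 5′ UTRs, in percent, with 95% exact binomial intervals over peaks; right, summits per Mb of the same class. X leads in introns on both scales (64.3% and 52.1 per Mb) and is lowest in intergenic sequence (26.04% and 39.2 per Mb).

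The other classes held few X summits. There were 55 in 5′ UTRs (6.17%, 4.68 to 7.96) against 4.48% on the arms (adjusted exact p = 0.0861), 17 in 3′ UTRs (1.91% against 1.41%, adjusted exact p = 0.323) and 12 in exons outside coding genes' coding and UTR sequence (1.35% against 2.89%, adjusted exact p = 0.0263). The last difference, −1.55 points, did not pass with replicate 1 alone (−0.793, adjusted exact p = 0.361), with replicate 2 alone (−1.14, adjusted exact p = 0.180), among peaks above the median signal of the whole list (−1.54, adjusted exact p = 0.115), against 3L alone (−1.66, adjusted exact p = 0.0600) or against 3R alone (−1.21, adjusted exact p = 0.119). Coding exons, 16.8% of the known bases of X, held 2 summits (0.224%, 0.0272 to 0.808), and 0.832% of the summits on the arms (adjusted exact p = 0.0952). Summits within 500 bp of any annotated start site, called promoter summits here, made up 37.7% (34.5 to 40.99) on X against 42.4% (40.6 to 44.3) on the arms (adjusted exact p = 0.0320). On 3L alone the share was 39.1%, and the difference of −1.44 points from it did not pass (adjusted exact p = 0.637). Protein-coding genes numbered 93.5 per Mb on X, against 113 on 2L, 97.8 on 3L and 107 on 3R. The promoter shares were not set against the density of start sites, and its part in the difference was not tested. Promoter summits made up 50.3% of the strongest part in 5 of X peaks and 33.1% to 36.0% of the others. Of the 336 promoter summits, 272 lay upstream of the start site.

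By the nearest annotated start site of any kind, 802 X summits (90.0%) belonged to a protein-coding gene, 78 (8.75%) to a noncoding RNA gene, 6 to a tRNA gene and 5 to a pseudogene. Noncoding RNA genes were nearest to 14.4% of summits on the arms, more than on X (Fisher's exact test, adjusted exact p = 2.87e-05, added after the data were seen). The share of all start sites that belong to such genes was not counted on X or the arms. Exons outside coding and UTR sequence made up 1.41% of the known bases of X, against 2.19% on 2L, 1.78% on 3L and 1.69% on 3R. The part of annotation in the difference was not tested. In the stronger part of the list, above its median signal, the shares were 9.37% and 12.1% and the difference did not pass (adjusted exact p = 0.127). Of the 2196 protein-coding genes of X, 503 (22.9%) were the nearest such gene to at least 1 summit, against 1811 of 8817 (20.5%) on the arms (adjusted exact p = 0.0327). That call was not kept against 2L alone (2.62 points, adjusted exact p = 0.0687) or 3L alone (1.04 points, adjusted exact p = 0.546). At 346 X genes a summit stood 500 bp or less from a start site (15.8%) and at 16.8% of genes on the arms (adjusted exact p = 0.316).

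X peaks also came in groups. A neighbouring summit lay within 2 kb of 366 X summits (41.1%), against 32.6% on 2L, 32.9% on 3L and 27.7% on 3R, values given as a description. These shares did not allow for differences in peak density between X and the arms. They include overlapping peaks, since 35 X peaks overlapped the peak before them and all 25 X peaks of signal under 20 overlapped a stronger one. The counts per gene below include such peaks as well. Of the 503 genes, 315 had 1 summit, 164 had 2 to 4 and 24 had 5 or more, and those 24 took 166 summits (18.6%). CHES-1-like, which encodes a forkhead transcription factor, had the most, 14 summits over 42357 bp with signals from 49.9 to 636, 13 of them intronic. kirre, an immunoglobulin-type adhesion protein of myoblast fusion with a locus of 394149 bp, had 11 intronic summits from 2.31 to 285. Inside that locus lay 22 summits, some of them nearer to the start of another gene. Tlk had 10 summits from 58.5 to 969, and Hr4 had 9, all intronic, from 85.3 to 513. In both replicates' own lists were 10 of the 14 summits at CHES-1-like, 6 of 11 at kirre, 6 of 10 at Tlk and 7 of 9 at Hr4.

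dnc, the cAMP phosphodiesterase of learning, and CG43658 had 8 each, with strongest signals of 500 and 186. Genes with 7 were Raf, dlg1, Myc and Mnt. At Raf, the MAP kinase kinase kinase of receptor tyrosine kinase signalling, all 7 lay within 10212 bp and all were in both replicates, with signals from 129 to 621. At the growth regulators Myc and Mnt, transcription factors that share the partner Max, the strongest had 205 and 179, and 4 of 7 at each were in both replicates. NFAT, Ptpmeg2, Moe, CG42258, spri, Bx, C3G and Grip had 6 each, with strongest signals from 98.9 at Grip to 730 at NFAT. The remaining genes, unc-119, Zdhhc8, CG15465, RhoGAP19D, Fim and PIP82, had 5 each. Of these, unc-119 had all 5 in both replicates, with signals from 124 to 224, and CG15465 and PIP82 had none in both. Summits were assigned to the nearest start site and not to the gene they lay in. All those of unc-119 (chrX:7292069-7299533) and PIP82 (chrX:8533698-8542969) lay outside these genes, the latter inside Nrg. Only 2 summits lay inside Myc, and those of CHES-1-like began at chrX:7666851, outside that gene.

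Genes of X were also grouped into lists by role, each member counted as having a peak when it was the nearest protein-coding gene to a summit. The noncoding genes roX1 and roX2 could therefore not be counted, and of the 150 listed protein-coding genes 56 (37.3%) had a peak, beside 22.9% of all X protein-coding genes. The lists were chosen with earlier results of these data known, so the counts are descriptions. Of the dosage compensation genes, mof, the acetyltransferase of the MSL complex, was nearest to no summit, and the closest lay 3863 bp from its start. A peak overlapped the end of roX2, whose RNA is part of that complex (chrX:11580329-11580664, signal 124, with 64.8 in replicate 1 and 53.9 in replicate 2). Its summit lay 65 bp beyond the end of roX2 and 1432 bp from its start, and the nearest start was that of nod, 275 bp away. No peak overlapped roX1, the other noncoding RNA gene of the complex, and the closest summit lay 5962 bp from its start. Of 6 sex determination genes, 2 had peaks. Sxl had 2 intronic summits, the stronger of 187 (90.2 in replicate 1 and 96.7 in replicate 2). upd1, a JAK/STAT ligand and X-linked signal element, had an intergenic one of 174 (80.9 and 89.4) at 14036 bp from its start. The other X-linked signal elements sc, sisA and run, and the splicing factor snf, had none, at nearest distances from 4133 bp for sisA to 57679 bp for sc.

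Patterning transcription factors had peaks at 10 of 23 members. The strongest peak of each of these 10 had a median signal of 127, beside 169 over all lists and 136 over all X protein-coding genes with a peak. These included the T-box gene org-1 (556, with 285 in replicate 1 and 261 in replicate 2), the T-box gene bi, also called optomotor-blind (197, with 77.9 and 114) and the zinc finger gene ovo (193, with 104 and 86.6), and acj6 had none. The proneural genes of the achaete-scute complex, ac, sc, l(1)sc and ase, had none, although a summit of 477 lay 33243 bp from ase. Signalling genes had peaks at 10 of 20 members, led by Raf (621, with 306 and 313), the GSK3 kinase sgg (527, with 245 and 275) and the BMP antagonist sog (226, with 106 and 124), and arm, the fly beta-catenin, had none. Chromatin regulators had peaks at 7 of 11, led by ph-p, its neighbour ph-d (337, with 162 and 165) and the CBP acetyltransferase nej (316, with 153 and 155), and e(y)1 had none.

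Structural and neuronal genes were mixed. Junction, polarity and cytoskeleton genes had peaks at 10 of 15 (66.7%, 38.4 to 88.2), led by Moe, the fly moesin (470, with 245 and 223), kirre (285, with 151 and 129) and sqh, the myosin regulatory light chain (250, with 124 and 123), and arm again had none. Neuronal genes had peaks at 7 of 17, led by norpA, the RNA-binding protein gene elav (630, with 287 and 340) and dnc, and Appl had none. Nrg was nearest to none, although 5 summits lay inside it. Of the 4 genes of the muscle list only Act5C, which encodes a cytoplasmic actin, was nearest to a summit (335, with 182 and 160). Actn, the alpha-actinin gene, was nearest to none, although 1 summit lay inside it, 824 bp from its start and nearer to that of another gene. Cell cycle and growth genes had peaks at 2 of 10, Myc and the nuclease gene mei-9 (124, with 63.3 and 60.0), and Cdk7 had none. mei-41 was nearest to none, although a summit of 450 (224 and 222) lay 163 bp from its start. That summit was assigned to TH1, whose start was 97 bp away. Germline genes had peaks at 3 of 11, egh (377, with 169 and 206), ovo and Sxl, and dhd had none.

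Cytoplasmic ribosomal protein genes had weak peaks at their start sites. A summit was nearest to 7 of 14, the strongest of each lay 23 to 179 bp from a start site, and the signals ran from 55.4 at RpS14b to 98.5 at RpS28b. None of these 7 was in both replicates' own lists. RpS28b (98.5) was in that of replicate 1 with 56.0, RpS5a (90.0) in that of replicate 2 with 40.3, and RpL22 (72.1) in that of replicate 1 with 45.1, while RpL35 had no peak. Genes of the adult female and of the adult senses were without peaks: 0 of 8 eggshell and yolk genes (up to 36.9%), Cp36 among them, and 0 of 14 chemoreceptor genes (up to 23.2%), Gr10a among them. Both intervals include the 22.9% of all X protein-coding genes that had a peak, so these lists cannot be told apart from that share.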

How the data were processed

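Whole embryos of 1 group with 2 biological replicates were profiled by ChIP-seq. Per the deposited text descriptions, coordinates are those of dm6, and peaks came from replicate alignments and a control alignment, ranked or selected by IDR. Which aligner and peak caller were used is not given in the sources used here. Read depth is unknown. The signal value of each peak was deposited by the authors without a unit. The list named conservative served as the main list. In the ranked lists 8 columns of per-replicate values were not used.

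Gene annotation was Ensembl release 115 (BDGP 6.54) without transposable elements. Sequence was RefSeq's of the same assembly, and densities count known bases. Where annotations of the summit base overlapped, coding exons took precedence over 5′ UTRs, these over 3′ UTRs, then other exons and introns. The gene of a peak is the protein-coding one whose start site is nearest. Overlap between lists needed at least 1 bp. Shares were compared by two-sided Fisher's exact tests and densities by exact binomial tests, with Benjamini-Hochberg adjustment over 14 comparisons and, for words, over 7, at a threshold of 0.05. Intervals are exact binomial at 95%. Tests were checked on simulated data. Software was scipy 1.17.1, statsmodels 0.14.6, pandas 2.3.3, matplotlib 3.10.9 and numpy 2.4.6 under Python 3.11.15.

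The members, gene lists and words were chosen with earlier results of these data known. Genes named were those nearest to the 15 strongest X peaks (1 of which is not reported here) or to 5 or more summits, those at the longest gap, all dosage compensation and sex determination genes and, of each other list, up to 3 with the strongest peaks and the alphabetically first without one. Genes beside printed sequences, the 4 achaete-scute members, genes at single bins, and Nrg, mei-41 and TH1 were named after their values were seen. For 3 listed genes an older symbol gave the match. Results were recomputed with the other list of the series, the list of each replicate, the stronger part of the list, each arm alone, other distances and windows, and, added after the data were seen, removal of peaks of signal under 20.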

Additional observations from a re-analysis of the deposited data

Results flagged for a closer look

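Beside the assembled X, 22 peaks of the main list lay on 18 X scaffolds that are not placed in the arm, and no comparison above used them. Their signals ran from 9.94 to 741 with a median of 89.2, and 276 ranked peaks lay on such scaffolds. They were singled out because they are signal in sequence outside the comparisons, and a control measured the same way was not analysed here.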

How the results depend on the processing

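No paired analysis was possible because the series has only 1 group. Each arm set alone against X changed several calls. The density ratio of X was 1.08 against 2L and 1.10 against 3L, and neither passed. The promoter difference was −1.44 points against 3L, and the difference in genes with a peak was 2.62 points against 2L and 1.04 against 3L, none past the threshold. The share of X peaks above the arms' top-fifth value turned to −2.09 points against 2L. Only 1 word, TTAAAA, differed from 2L. With windows of 50 bp either side of the summit TTAAAA was again the only passing word. ACAGTG then stood at 6.73% of X summits and 5.93% of those on the arms, and did not pass. With 1000 bp around start sites the promoter difference was −3.74 points and did not pass, and that of genes with a summit there turned to −0.461. The difference in peaks above the median turned to −3.51 points among promoter summits and rose to 6.43 among the others. Differences for GAGAG ran from −1.50 to 0.736 points when a replicate was left out and turned to −0.307 with 50 bp windows, that of TATCGATA to 0.221 against 3L and that of GGTCACAC to 0.0511 with 50 bp windows; none of these passed. The cause of these changes was not tested. Of 89 values of the main comparisons under alternatives, 77 were classed as unchanged. For shares and ratios this means the same direction and side of the threshold. The intron and intergenic shares were among these in every alternative run. The 77 also include counts of passing classes or words, some of which moved. Passing classes went from 3 to 2 with replicate 2 alone, among peaks above the median signal, and against 3L or 3R alone. They went to 4 without peaks of signal under 20. Passing words went from 2 to 3 with replicate 2 alone and against 3R alone. A single experiment of unknown depth limits all of this to the deposited lists.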
